A study of Mus musculus with 380 samples.

Results

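Hspa1a, Hspa1b, Dnajb1, Hsph1, Hsp90aa1, Dnaja1, Hspa8 and Hsp90ab1, 8 genes of the cytosolic HSP70 and HSP90 chaperone machinery, were followed through T cells sorted from mouse melanomas. They were chosen by name as the heat shock chaperones of the deposited matrix, with earlier results of these data known. All 8 are among its 23420 gene symbols. Fos and Ier2, a pair of immediate-early genes, were followed beside them. RNA was read by Smart-seq2, which amplifies full-length cDNA from cells sorted into wells and carries no molecular identifiers. The T cells came from B16F10 tumours, a transplantable mouse melanoma, in C57BL/6 mice. The groups were CD4 cells labelled IL27raKO, wild-type (WT) CD4 cells, CD8 cells labelled IL27raKO and WT CD8 cells. Il27ra, the gene named in the knockout label, encodes a chain of the receptor for interleukin-27. Each group was a single plate of 94 single cells and 1 population well, a library prepared from many cells. The labels give neither the age of the mice nor how many mice stand behind a plate. The WT CD4 plate carries p2 in its titles where the others carry p1, and the protocol text names CD8+ cells only. All titles also hold WT4 or KO4, a number whose meaning is not given.

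HSP70 proteins bind unfolded stretches of other proteins and release them in a cycle driven by ATP. J-domain proteins (the DNAJ family) bring the substrate and start ATP hydrolysis, nucleotide exchange factors of the HSP110 family reset the cycle, and HSP90 proteins act on later folding steps of kinases and receptors. Under heat or other protein-damaging stress the transcription factor HSF1 switches on the inducible members, whereas the constitutive members are made in most cells at all times. Immediate-early genes such as Fos and Ier2 answer stimulation within minutes, and both they and the inducible chaperones are known to be raised by warm dissociation of tissue. The labels used here describe no dissociation step. Hspa1a, Hspa1b, Dnajb1 and Hsph1 are grouped below as inducible, Hspa8 and Hsp90ab1 as constitutive, and Hsp90aa1 and Dnaja1 as members that are made at rest and raised by stress.

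Values are FPKM, fragments scaled to transcript length and library size, and so can be compared between genes. A gene counted as detected above FPKM 1, and a cell was kept with at least 1000 detected genes. This left 73 KO-labelled CD4, 79 WT CD4, 80 KO-labelled CD8 and 72 WT CD8 cells of 94 on each plate, with medians of 2218, 2045, 2508 and 3168 detected genes. The wells had 10450 to 10946. Between 97.3% and 100% of the cells on a plate had at least 1 of 5 T cell genes. Cd4 was found in 84.9% and 89.9% of cells on the KO-labelled and WT CD4 plates against 0% and 5.56% on the CD8 plates, and Cd8a in 4.11% and 5.06% against 90% and 84.7%. The CD8 genes separated the plates less when Cd8b1 was counted too. At least 1 of Cd8a and Cd8b1 was found in 31.5% and 34.2% of cells on the CD4 plates against 91.25% and 94.4%. Tyr, a pigment gene of the tumour, was above FPKM 1 in 97.5% to 100% of cells, while the other 4 melanoma markers reached at most 15.3% on any plate. Il27ra was present on the KO-labelled plates, in 47.9% of CD4 cells against 43% of their WT counterparts, and in 61.3% of CD8 cells against 65.3%. A value per gene cannot say whether the deleted part was read, so the label is not checked by it, and the groups are called KO-labelled. At least 3 of 5 macrophage genes were detected in 4 kept cells, 3 on the KO-labelled CD4 plate and 1 on the WT CD4 plate. With 1 plate per group there is no replicate and no test: every difference below is one between single plates, and the 95% Clopper-Pearson intervals given for shares of cells hold no more than counting error.

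The inducible HSP70 genes are a near-identical pair on chromosome 17, Hspa1b at 34956436 to 34959238 and Hspa1a at 34969190 to 34972156 (GRCm38, minus strand, GENCODE M21), 9951 bases apart. Of the 50-base words of the longest Hspa1a transcript, 58.8% also occur in Hspa1b, and 62.3% of those of Hspa1b occur in Hspa1a. How the estimated counts were shared between them is therefore uncertain, and the pair is also read as a sum. The 250 bases upstream of both starts are shown because these are the members with the sharpest contrast between cells. Capitals mark GAANNTTC or its arrangement TTCNNGAA, inverted repeats of the unit that HSF1 is known to bind. Both words read the same on either strand. The sequences are from RefSeq (GRCm38.p6) and end at its start sites, which can differ from the gene bounds of GENCODE. They are written 5′ to 3′ along the gene, at chr17:34972157-34972406 for Hspa1a and chr17:34959239-34959488 for Hspa1b.
Hspa1a: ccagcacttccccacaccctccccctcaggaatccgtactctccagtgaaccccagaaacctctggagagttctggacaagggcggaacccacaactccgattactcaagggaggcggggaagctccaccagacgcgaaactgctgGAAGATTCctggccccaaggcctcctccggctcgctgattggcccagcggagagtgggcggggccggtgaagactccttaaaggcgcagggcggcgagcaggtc
Hspa1b: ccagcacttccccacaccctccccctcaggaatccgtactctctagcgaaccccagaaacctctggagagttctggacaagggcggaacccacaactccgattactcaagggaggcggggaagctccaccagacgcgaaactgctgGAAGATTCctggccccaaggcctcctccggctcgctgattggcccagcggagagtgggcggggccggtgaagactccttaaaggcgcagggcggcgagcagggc
The windows were 98.8% identical and differed at 3 of 250 bases, written C44T, T47C and T249G (the base of Hspa1a, its position counted from 1 at the 5′ end of the window, then the base of Hspa1b). Each held 1 motif, at the same distance from the start site. Dnajb1, on chromosome 8 at 83608193 to 83612653 (plus strand), had neither word in its window at chr8:83607925-83608174, which is shown for contrast.
Dnajb1: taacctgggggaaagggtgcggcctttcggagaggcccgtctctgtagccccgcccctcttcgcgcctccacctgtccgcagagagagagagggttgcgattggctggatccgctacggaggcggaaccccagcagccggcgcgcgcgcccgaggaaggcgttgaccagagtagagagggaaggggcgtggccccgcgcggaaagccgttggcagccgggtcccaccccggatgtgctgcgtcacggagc
Hsph1 and Dnaja1 held 1 motif each in their windows, and 30 bases around it are shown, at chr5:149636351-149636380 (minus strand) for Hsph1 and chr4:40722333-40722362 (plus strand) for Dnaja1.
Hsph1: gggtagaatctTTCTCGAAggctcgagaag
Dnaja1: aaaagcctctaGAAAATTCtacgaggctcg
By the GENCODE bounds the Dnaja1 window and its motif, and the Hsph1 motif, lie inside the gene and not upstream of it. Thus 4 of the 5 members with a window held either word. The share among 32851 RefSeq promoter windows of the same length was 12.8% (6.69% for GAANNTTC and 7.17% for TTCNNGAA). The near-identical windows of Hspa1a and Hspa1b are not independent matches, so the count is not read as an excess over that share. A match is a description of the letters and no sign of binding. Windows were not used for Hsp90aa1, Hspa8 and Hsp90ab1. Hsph1 lies on chromosome 5 at 149614287 to 149636376 (minus strand), Hsp90aa1 on chromosome 12 at 110690605 to 110702728 (minus strand) and Dnaja1 on chromosome 4 at 40722150 to 40737149 (plus strand). Hspa8 lies on chromosome 9 at 40800984 to 40810087 (plus strand) and Hsp90ab1 on chromosome 17 at 45567775 to 45573271 (minus strand). Hspa8 shares 70% of its 50-base words with the pseudogene Gm15459 and Hsp90aa1 51.5% with Gm12346, neither of which is a row of the matrix, so reads of these copies could have been counted with the genes.

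The inducible HSP70 pair was undetected in nearly every T cell and very high in a few. Hspa1a or Hspa1b was detected in 15 kept cells: 5 of 73 KO-labelled CD4 cells (6.85%, interval 2.26 to 15.3), 4 of 79 WT CD4 cells (5.06%, 1.40 to 12.5), 3 of 80 on the KO-labelled CD8 plate (3.75%, 0.78 to 10.6) and 3 of 72 on the WT CD8 plate (4.17%, 0.87 to 11.7). The intervals of the 4 plates overlap. Hspa1a was found in 12 of these cells, Hspa1b in 5 and both in 2. In 4 cells Hspa1a was above FPKM 1000. The highest, on the WT CD4 plate, had 18230.1 FPKM of Hspa1a and 227.9 of Hspa1b. The second, on the WT CD8 plate, had 8453 and 607.4 FPKM. On the KO-labelled CD4 plate the 2 highest cells had 3272 and 1357 FPKM of Hspa1a, and on the KO-labelled CD8 plate the highest had 743.2. A single cell thus carried 66.4% of all Hspa1a FPKM of the KO-labelled CD4 plate, 98.2% of the WT CD4 plate, 75.3% of the KO-labelled CD8 plate and 99.5% of the WT CD8 plate.

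**Figure D1:**
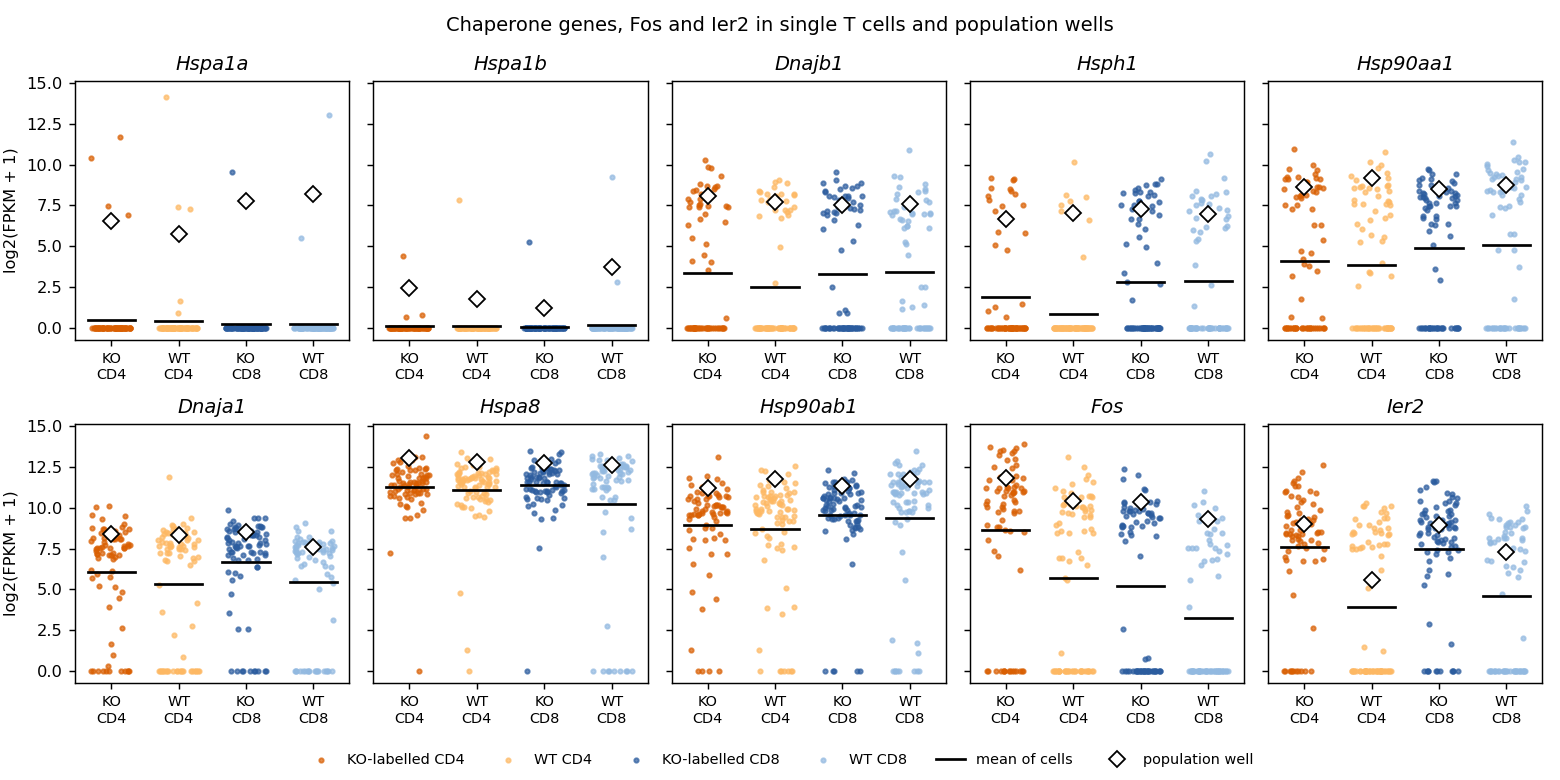
Levels of the 8 chaperone genes, Fos and Ier2 in each kept cell (points; vertical axis, log2(FPKM + 1); horizontal axis, plate), with the mean of the cells as a line and the population well as a diamond. Hspa1a and Hspa1b sat at 0 in nearly all cells of every plate, whereas Hspa8 formed a band around its median of 2782 to 4054 FPKM.

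The wells, which sample many cells at once, contained the pair on every plate. Hspa1a had 94 FPKM in the KO-labelled CD4 well, 52.1 in the WT CD4 well, 217.5 in the KO-labelled CD8 well and 298.6 in the WT CD8 well. Hspa1b had 4.44, 2.34, 1.35 and 12 FPKM in the same wells, so that both CD8 wells were above both CD4 wells for Hspa1a but not for Hspa1b. As a sum the pair had 98.5, 54.4, 218.8 and 310.6 FPKM in the wells, against means over cells of 67.8, 237.8, 12.8 and 126.5 FPKM. The well exceeded the mean of the cells 17.6-fold for Hspa1a on the KO-labelled CD8 plate and was 0.222 of it on the WT CD4 plate, where 1 cell set the mean. The median of all genes for this ratio was 1.86, 1.94, 1.82 and 1.65 on the 4 plates. In a well, a few cells with much RNA and many cells with little cannot be told apart. The wells also held macrophage genes: the sum of 5 such genes was 3320 FPKM in the KO-labelled CD4 well, 48.4 in the WT CD4 well, 881.4 in the KO-labelled CD8 well and 1950 in the WT CD8 well, with C1qa at or under FPKM 1 in all but the last. Over cells this sum ranged up to 31204.4, 74251.8, 1077 and 578.1 FPKM with a median of 0 on each plate. The part of such cells in the HSP70 levels of the wells was not tested.

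The cells with the pair were of several kinds. Of the 15, 10 also had Hsph1 or Dnajb1. Among all kept cells of a plate, the 15 included, 39.2% to 65.3% had at least 1 of the 4 inducible genes. That is a wider measure, as it also counts Hspa1a and Hspa1b. The share of other cells with Hsph1 or Dnajb1 was not counted. All 15 had Hspa8, as did 95.85% of all other kept cells. With the plates pooled, Hsph1, an HSP110 exchange factor, was found in 66.7% of the 15 against 28.7% of all other kept cells. Hsp90aa1 was found in 73.3% against 57.1%. Dnajb1, the J-domain partner of inducible HSP70, was found in 46.7% against 43.6%. The WT CD8 cell with 8453 FPKM of Hspa1a also had the highest Dnajb1 and Hsp90aa1 of its plate, 1866 and 2666 FPKM, with 1186 FPKM of Hsph1, and was the only cell of the series with all 4 inducible genes. The WT CD4 cell with 18230.1 FPKM likewise had the highest Hsph1 and Dnaja1 of its plate, 1131 and 3775 FPKM, but Dnajb1 at 0. Neither stood out in the number of detected genes, with 2419 and 2159. By contrast, the KO-labelled CD4 cell with 3272 FPKM had Dnajb1, Hsph1 and Dnaja1 at 0.

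In 2 of the 15 cells none of the 3 CD3 genes was detected, while all 5 macrophage genes were. They had 121.8 FPKM of Hspa1a on the KO-labelled CD4 plate and 169.1 on the WT CD4 plate, with Fos at 11463 and 8960 FPKM, and both lacked Dnajb1 and Hsph1. Without the 4 cells that held at least 3 macrophage genes the shares were 5.71% and 3.85% on the KO-labelled and WT CD4 plates. Fos was detected in 73.3% of the 15 cells and Ier2 in 66.7%, against 58.1% and 69.6% of the others. The 15 cells had a median of 2845 detected genes and the others 2332. All 3 such cells of the WT CD8 plate were among its 30 cycling cells, defined below, and none among its other 42, which allows a share of up to 7.14% when 3 counts of the total are taken as the limit (8.41% by the Clopper-Pearson interval).

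**Figure D2:**
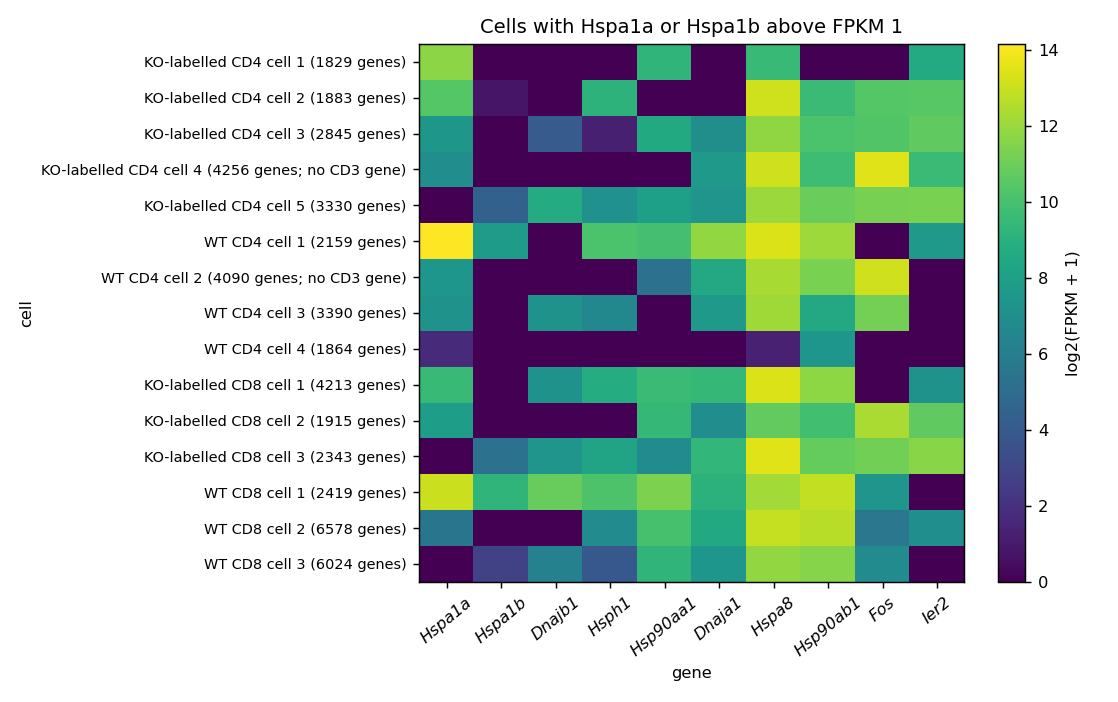
The 15 cells with Hspa1a or Hspa1b above FPKM 1 (rows, with the number of detected genes) and their level of each gene (columns; colour, log2(FPKM + 1)). The WT CD4 cell with 18230.1 and the WT CD8 cell with 8453 FPKM of Hspa1a stand above the rest, and the 2 cells with no CD3 gene lacked Dnajb1 and Hsph1.

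Dnajb1 and Hsph1, the other inducible members, were present in a sizeable minority of cells and at moderate level. Dnajb1 was detected in 45.2% of KO-labelled CD4 cells (33.5 to 57.3), 32.9% of WT CD4 cells (22.8 to 44.4), 45% of KO-labelled CD8 cells (33.9 to 56.5) and on the WT CD8 plate 52.8% (40.7 to 64.7). Where detected its median was 188.8, 221.5, 196.8 and 122.8 FPKM, and the highest cells had 1239, 541.8, 749.3 and 1866 FPKM. The wells had 268.8, 203.6, 184.3 and 188.5 FPKM. Hsph1 was the member that varied most between plates in its share of cells: 28.8% (18.8 to 40.6) and 11.4% (5.34 to 20.5) of KO-labelled and WT CD4 cells, against 41.3% (30.4 to 52.8) and 41.7% (30.2 to 53.9) of KO-labelled and WT CD8 cells. The interval of the WT CD4 plate lay below those of both CD8 plates. Many genes were lower on that plate. Of 6524 genes compared between WT CD4 and WT CD8 cells, 37.2% were lower in CD4 by at least 1 in mean log2(FPKM + 1). Only 12.9% were higher there at all. The WT CD4 cells also had fewer detected genes, with medians of 2045 against 3168. How many of all genes had intervals apart was not counted. In cells with Hsph1 the median was 172.1, 186.3, 179.8 and 143.8 FPKM, so the plates differed in how many cells had it and little in its level there. The wells did not show the low Hsph1 of WT CD4 cells, with 98.7, 127.3, 156.6 and 123.98 FPKM. Dnajb1 and Hsph1 occurred together in 17.8%, 7.59%, 22.5% and 29.2% of cells, where the product of their shares gives 13%, 3.75%, 18.6% and 22%. Cells with both had more detected genes than the others, with medians of 2350, 2917, 2782 and 5041 against 2118, 2041, 2416 and 2690.

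**Figure D3:**
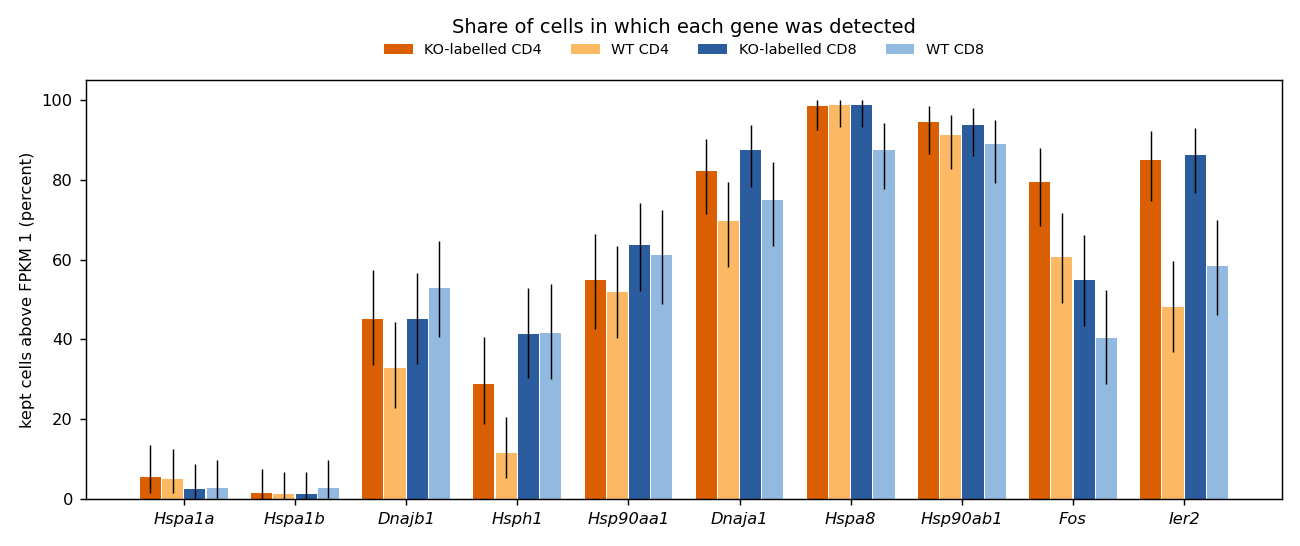
Share of kept cells in which each gene was above FPKM 1 (bars; vertical axis, percent), by plate, with 95% Clopper-Pearson intervals. The members fall from 87.5% to 98.8% for Hspa8 down to 1.25% to 2.78% for Hspa1b, and Hsph1 was lowest on the WT CD4 plate at 11.4%.

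Hsp90aa1 and Dnaja1 were intermediate. Hsp90aa1, the stress-responsive cytosolic HSP90, was detected in 54.8%, 51.9%, 63.8% and 61.1% of KO-labelled CD4, WT CD4, KO-labelled CD8 and WT CD8 cells, with highest cells of 2003, 1768, 848.6 and 2666 FPKM. Its wells had 387.4, 575.6, 368.02 and 427.2 FPKM. Dnaja1, a J-domain partner of HSP70, was detected in 82.2% (71.5 to 90.2), 69.6% (58.3 to 79.5), 87.5% (78.2 to 93.8) and 75% (63.4 to 84.5) of cells, with medians of 178.8, 172.7, 201.2 and 151.01 FPKM. On both lineages the share was higher in KO-labelled cells, with overlapping intervals. The wells had 338.98, 324.1, 369.8 and 195.2 FPKM of Dnaja1, the WT CD8 well being the lowest.

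The constitutive members were near universal and among the most abundant transcripts of these cells. Hspa8, the constitutive HSP70 (HSC70), was detected in 98.6%, 98.7%, 98.8% and 87.5% of cells with medians of 2782, 3076, 3100 and 4054 FPKM, and ranked 13 to 17 of all genes by its mean over cells. The quartiles were 1883 and 4158 FPKM on the KO-labelled CD4 plate, 1672 and 4171 on the WT CD4 plate, 2041 and 4978 on the KO-labelled CD8 plate and 1650 and 5981 on the WT CD8 plate. Hsp90ab1, the constitutive HSP90, was detected in 94.5%, 91.1%, 93.8% and 88.9% of cells with medians of 871.8, 939.4, 1081 and 1946 FPKM. The wells had 8676, 7014, 6769 and 6202 FPKM of Hspa8 and 2327, 3502, 2564 and 3507 FPKM of Hsp90ab1.

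The WT CD8 cells without Hspa8 were sparse libraries. Of the 72 kept cells of that plate 9 lacked Hspa8, against 1 on each of the other plates, and these 9 had only 1056 to 1456 detected genes. Hsp90ab1 was at 0 in 8 of them and at 2.71 FPKM in the other. Among cells with at least 2000 detected genes Hspa8 was found in 100% on all 4 plates. Cells with Hsp90aa1 but no Hsp90ab1 were rare, 1, 1, 3 and 0 on the 4 plates, whereas Hsp90ab1 without Hsp90aa1 was found in 30, 32, 27 and 20 cells. The order of the members by mean FPKM over cells began with Hspa8 and Hsp90ab1 and ended with Hspa1b on every plate and in every well. The interquartile ranges of Hspa8 and Hsp90ab1 overlapped on the WT CD8 plate and not on the others. Those of Dnaja1 and Hsp90aa1, and those of Dnajb1 and Hsph1, overlapped on each plate. Hspa1a had no stable place, with rank 3 by the mean of WT CD4 cells and rank 7 in the well of the same plate.

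Among all pairs of members, Hspa8 and Hsp90ab1 had the highest averaged rho across single cells. Their Spearman rho averaged 0.48 over the plates (0.25 to 0.76), and 0.28 as a partial rho that holds the number of detected genes constant. Over the 6 pairs of Hspa8, Hsp90ab1, Hsp90aa1 and Dnaja1 the median of the averaged rho was 0.32, and 0.18 as a partial rho. Over the 6 pairs of the 4 inducible genes it was 0.19, and 0.15 as a partial rho. Dnajb1 and Hsph1 had 0.20, and Hspa1a and Dnajb1 -0.01. Hspa1a and Hspa1b had 0.30, from -0.02 to 0.50 over the plates. Their partial rho of 0.30 was the highest of all pairs, above the 0.28 of Hspa8 and Hsp90ab1. It rests on few cells, as only 2 kept cells had both Hspa1a and Hspa1b detected. On the KO-labelled CD4 plate no cell had both detected. Their rho of 0.26 there included a cell with 1357 FPKM of Hspa1a and 0.74 FPKM of Hspa1b. The part of reads shared between Hspa1a and Hspa1b in this rank was not tested. These correlations describe 72 to 80 cells of 1 plate each, which share a library preparation and differ in depth, and so carry no p. The inducible values hold many zeros, so weak correlations among them are no finding.

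Fos and Ier2 were widespread, and more so on the KO-labelled plates. Fos, a subunit of the AP-1 transcription factor, reached 79.5% (68.4 to 88) of cells on the KO-labelled CD4 plate against 60.8% (49.1 to 71.6) on the WT CD4 plate, and 55% (43.5 to 66.2) on the KO-labelled CD8 plate against 40.3% (28.9 to 52.5) on the WT CD8 plate. Ier2, another immediate-early nuclear protein, was found in 84.9% (74.6 to 92.2) of the KO-labelled against 48.1% (36.7 to 59.6) of the WT CD4 cells and in 86.3% (76.7 to 92.9) of the KO-labelled against 58.3% (46.1 to 69.9) of the WT CD8 cells. The Ier2 intervals of KO-labelled and WT cells do not overlap in either lineage, and the share of all genes with such intervals was not counted. The wells gave the same order, with 3601 and 1365 FPKM of Fos in the KO-labelled and WT CD4 wells and 1317 and 631.0 in the CD8 wells. Ier2 had 503.9 FPKM in the KO-labelled and 45.9 in the WT CD4 well, and 494.7 in the KO-labelled and 154.5 in the WT CD8 well. Between Fos and Ier2 themselves the rho over cells was 0.44, 0.19, 0.15 and 0.27 on the KO-labelled CD4, WT CD4, KO-labelled CD8 and WT CD8 plates.

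The chaperones followed Fos and Ier2 weakly within a plate. The mean log2(FPKM + 1) of the 4 inducible genes had a rho with Fos of -0.04, 0.27, 0.11 and 0.09 on those plates, 0.11 on average. With Ier2 it was 0.10, 0.24, 0.00194 and 0.29, on average 0.16. The mean of Hspa8 and Hsp90ab1 had 0.19, -0.08, 0.26 and 0.23 with Fos and 0.11, -0.01, 0.03 and 0.32 with Ier2, on average 0.15 and 0.11. The constitutive mean had the higher rho of both sets on 3 of 4 plates with each gene, and the inducible mean on the WT CD4 plate. The difference between the sets was not tested. Both had higher rho with the number of detected genes, on average 0.33 for the inducible and 0.59 for the constitutive mean. As partial rho given that number, the inducible mean had 0.08 with Fos and 0.12 with Ier2, and the constitutive mean 0.14 and 0.07. Single members ranged with Fos from -0.31 for Hsp90aa1 on the WT CD4 plate to 0.38 for Dnaja1 on the WT CD8 plate.

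**Figure D4:**
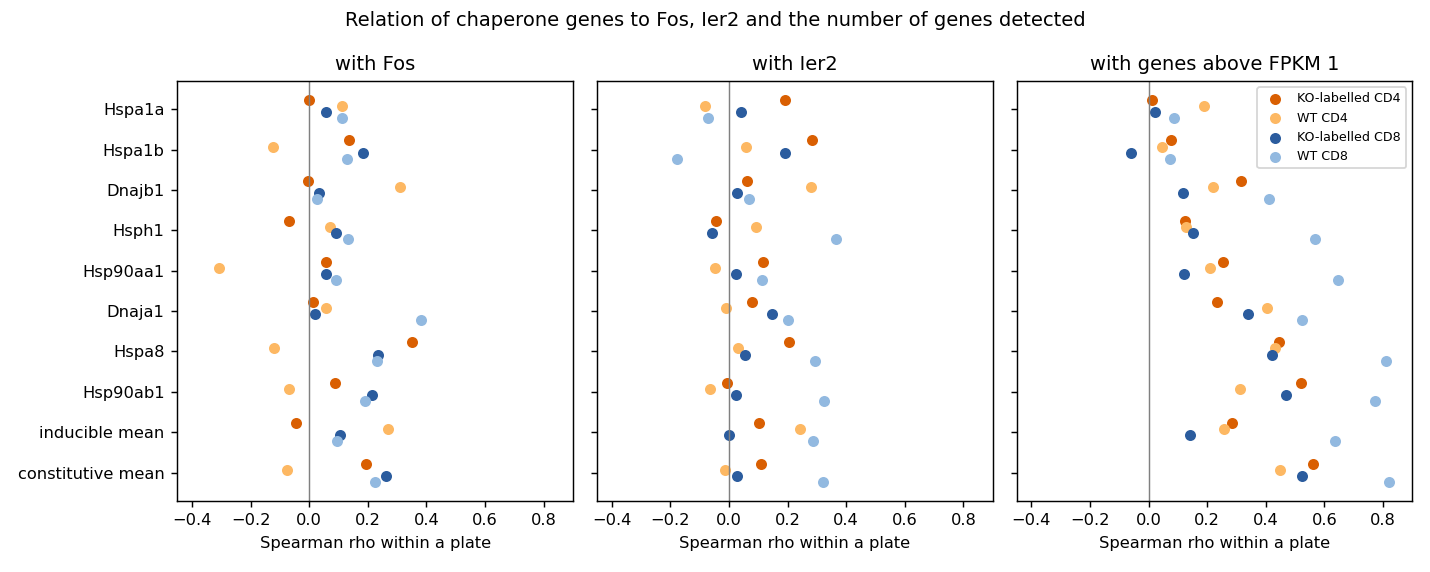
Spearman rho within each plate (horizontal axis; points, 1 per plate) of each member and of the inducible and constitutive means (vertical axis) with Fos, with Ier2 and with the number of genes above FPKM 1. The inducible mean averaged 0.11 with Fos and 0.16 with Ier2, below its 0.33 with the number of genes.

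The highest rho of the inducible mean with Fos came from the WT CD4 plate, and whether that plate differs from the others was not tested. At least 1 inducible gene was detected in 50% (30.7 to 69.4) of the 28 WT CD4 cells with both Fos and Ier2 and in 19.05% (5.45 to 41.9) of the 21 with neither, at medians of 2076 and 2041 detected genes. Dnajb1 was found in 46.4% against 9.52% of these cells, with a rho of 0.31 with Fos and 0.28 with Ier2. Hsp90aa1 went the other way, in 42.9% against 61.9%. The shares with at least 1 inducible gene were 54.7% of 53 cells with both against 66.7% of 6 with neither among KO-labelled CD4 cells. They were 66.7% of 42 against 66.7% of 9 among KO-labelled CD8 cells and 72.7% of 22 against 52.2% of 23 among WT CD8 cells, the last at medians of 4330 and 1747 detected genes. Among cells of at least 2000 genes the share of WT CD8 cells with neither was 80%. The intervals of cells with both and with neither overlap on each plate.

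By rho not adjusted for the number of detected genes, no immediate-early gene was among the 10 genes most like the inducible mean. Among 3336 genes detected in at least 20% of the cells of every plate, Stip1, the adaptor that joins HSP70 to HSP90, had the highest rho averaged over the plates, 0.37. It was followed by Srsf6 (0.35), Ptma (0.35), Strap (0.35), Rfc2 (0.35), Npm1 (0.35), Rpl15 (0.35), Ran (0.35), Slc7a11 (0.34) and Ppia (0.34). All 10 were positive on all 4 plates, and each also had a rho of 0.39 to 0.60 with the number of detected genes. Fos and Ier2 had only 0.07 and 0.09 with that number, and its part in the ranks was not tested. Ier2 ranked 1118 and Fos 1869, and the median of all 3336 genes was 0.12. For the constitutive mean Ptma (0.56), Eif5a (0.55) and Ppia (0.54) came first, with Fos at rank 2117 and Ier2 at 2414.

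Between KO-labelled and WT cells the differences of all 6 chaperones compared were smaller than those of Fos and Ier2. Differences are in mean log2(FPKM + 1) over cells, KO-labelled minus WT, and genes were compared where at least 20% of the cells of 1 plate had them. The median number of detected genes moves with the label in CD8, with 2508 in KO-labelled and 3168 in WT cells, and its part in the differences was not tested. Among chaperones 6 of 8 were compared in each lineage, since Hspa1a and Hspa1b fell short. In CD4 cells all 6 were higher on the KO-labelled plate, as were 62.5% of 4687 genes, with a median of 0.53 against 0.16 for all genes. Hsph1 had 1.05, Dnajb1 0.87, Dnaja1 0.79, Hsp90aa1 0.27, Hsp90ab1 0.25 and Hspa8 0.17. Hsph1 alone was past a difference of 1, as were 8.75% of all genes upwards and 1.51% downwards, but it was compared only through the KO-labelled plate. It was under 1 in matched cells (0.91), all cells (0.77), cells of at least 2000 genes (0.91), as log2 of the mean FPKM (0.94) and with a pseudocount of 10 (0.58). Hspa8 and Hsp90ab1 turned to -0.28 and -0.49 in cells matched on their number of genes. Over all cells, the sparse ones included, they had -0.74 and -0.68, and Hsp90aa1 had -0.12. Hspa8 also had -0.064 in cells of at least 2000 genes, and as log2 of the mean FPKM Dnaja1 had -0.026 and Hsp90ab1 -0.040. The CD4 wells did not share this direction for Hsph1 (-0.36), Hsp90aa1 (-0.57) or Hsp90ab1 (-0.59). Hspa1a and Hspa1b were higher by 0.84 and 0.70 in the KO-labelled CD4 well. None of the 8 was past 1 between the CD4 wells, where 19.9% of 11746 genes were higher and 16.4% lower by that much.

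In CD8 cells 3 of the 6 were higher and 3 lower on the KO-labelled plate, where 21.9% of 6599 genes were higher, though Hsph1 and Hsp90aa1 turned to 0.11 and 0.10 with libraries rescaled to equal totals. The median was 0.05 against -0.46 for all genes. Dnaja1 had 1.22 and Hspa8 1.20, past a difference of 1 as were 3.0% of all genes upwards and 19.5% downwards. Hsp90ab1 had 0.16, Hsph1 -0.07, Dnajb1 -0.08 and Hsp90aa1 -0.16. The direction of most members depended on which cells were taken. Hspa8 had -0.12 among cells of at least 2000 genes and -0.086 as log2 of the mean FPKM, but 1.14 in cells matched on their number of genes, 2.34 in non-cycling cells and 2.43 in cells of 1000 to 4000 genes. Hsp90ab1 turned to -0.81 among cells of at least 2000 genes, -0.75 as log2 of the mean FPKM and -0.077 with a pseudocount of 10, and had 1.39 in non-cycling cells. Dnaja1 kept its direction under every alternative, at 0.76 to 2.13, and was under 1 in cells of at least 2000 genes (0.80), as log2 of the mean FPKM (0.76) and with a pseudocount of 10 (0.82). Between the wells Hspa8 had 0.13, Hsp90ab1 -0.45 and Dnaja1 0.92. The CD8 wells had 217.5 against 298.6 FPKM of Hspa1a (-0.46) and 1.35 against 12 of Hspa1b (-2.47). Hspa1b was the only member past 1 there, where 18.6% of 11875 genes were higher and 16.8% lower by that much. As a sum the pair differed by -0.50 between the CD8 wells and by 0.84 between the CD4 wells. Non-cycling CD8 cells gave a member median of 1.57 against 0.15 for all genes, and cells matched on their number of genes 0.66 against 0.03. In cells of at least 2000 genes the member median was -0.51 against -0.66, and as log2 of the mean FPKM -0.19 against -0.16.

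**Figure D5:**
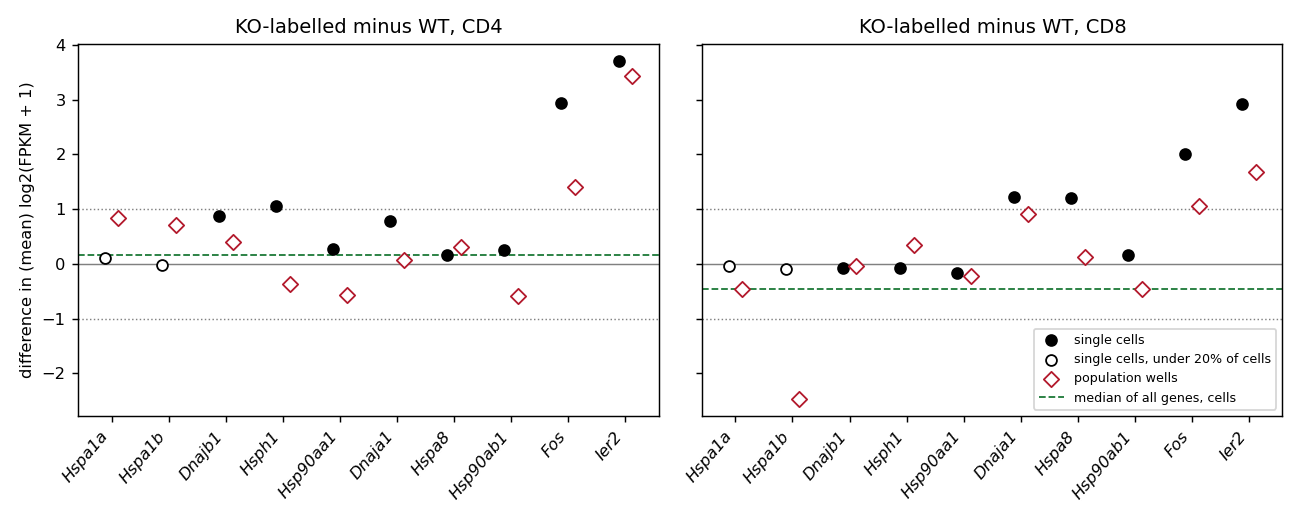
Differences between KO-labelled and WT plates (vertical axis, in mean log2(FPKM + 1) for cells and in log2(FPKM + 1) for wells) for each gene (horizontal axis), in CD4 and CD8. Filled points are single cells, open circles members under 20% of cells, diamonds population wells and the dashed line the median of all genes. Ier2 lies at 3.71 and 2.92 in cells, above all members.

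Fos and Ier2 had larger differences than any member compared. Fos differed by 2.94 in CD4 and 2.00 in CD8 cells, and Ier2 by 3.71 and 2.92, with 1.40, 1.06, 3.43 and 1.67 between the wells. A list of 20 immediate-early genes that includes both was chosen with earlier results of these data known. Of these, 17 were compared in CD4 cells and all 17 were higher, 14 by at least 1. Of all genes there, 62.5% were higher and 8.75% by at least 1. In CD8 cells 15 of 16 were higher and 12 by at least 1, beside 21.9% and 3.0% of all genes. The list had a median of 1.495 in CD4 cells (0.040 to 4.07) and 1.92 in CD8 cells (-0.40 to 3.58). In non-cycling CD8 cells Hspa8 (2.34) and Dnaja1 (2.12) came close to Fos (2.41). Gadd45b (4.07), Dusp1 (2.99) and Ppp1r15a (2.68) in CD4 and Fosl2 (3.58), Ppp1r15a (3.31) and Junb (3.26) in CD8 were among the largest. Gadd45b encodes a stress sensor, Dusp1 a phosphatase of MAP kinases and Ppp1r15a a phosphatase subunit that acts on eIF2.

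Other chaperones gave no common direction. Of 57 further cytosolic and mitochondrial chaperones and co-chaperones, 35 were compared in CD4 cells, 24 higher and 11 lower on the KO-labelled plate, with a median of 0.39, beside the 62.5% of all genes that were higher. Fkbp4 (1.32) and Stip1 (1.06), both HSP90 co-chaperones, and Cct4 (1.16) and Cct7 (1.07), subunits of the TRiC chaperonin, were past 1, and all 4 were lower in the KO-labelled well (-0.19 to -0.41). In CD8 cells 7 of 41 were higher and 34 lower, beside 21.9% of all genes higher, and their median of -0.53 was near the -0.46 of all genes. There Cct2 (-1.85), Cct7 (-1.85), Trap1 (-1.81), Ahsa1 (-1.63), Stip1 (-1.47) and Hspa14 (-1.46) were lowest and Ubb (1.39), a polyubiquitin gene, was the only one above 1. Of 18 genes of the endoplasmic reticulum chaperones and unfolded protein response, 12 of 15 compared were higher on the KO-labelled CD4 plate. Their median was 0.74, beside 62.5% of all genes higher and a median of 0.16. They were led by Dnajb11 (2.50) and Hspa5 (2.27), which encodes the HSP70 of that compartment. Between the CD4 wells 15 of the 18 were higher, as were 50.3% of all genes, with Dnajb11 at -0.14 and Hspa5 at 0.54. In CD8 cells 5 of 18 were higher, beside 21.9% of all genes. Their median was -0.62 against -0.46 for all genes, with Dnajb9 at 1.95.

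Single CD4 cells had less Hsph1 than CD8 cells under both labels. Differences here are CD4 minus CD8, between the same 4 plates as above. Among KO-labelled cells 5 of 6 members compared were lower, where 34.7% of 5286 genes were higher, with a median of -0.59 against -0.21 for all genes, and Hsph1 (-0.91) and Hsp90aa1 (-0.80) were lowest. None was past 1, as were 4.63% of all genes upwards and 11.1% downwards. Among WT cells 5 of 6 were lower (Dnaja1, at -0.17, turned to 0.13 with rescaled libraries), where 12.9% of 6524 genes were higher. The median was -0.78, close to the -0.76 of all genes. Hsph1 (-2.04) and Hsp90aa1 (-1.23) were past 1, as were 37.2% of all genes downwards and 2.16% upwards, but Hsph1 was compared only through the CD8 plate. Hspa8 had 0.87. Without cycling cells the WT values were -0.88 for Hsph1 and 0.62 for Hsp90aa1, and in cells matched on their number of genes -0.77 and 0.041. Under both, Hsph1 and Dnajb1 alone were lower among the 6. The wells gave Hsph1 differences of -0.66 (KO-labelled) and 0.038 (WT, and -0.042 with rescaled libraries). Hspa1a was lower in the CD4 well under both labels, with 94 against 217.5 FPKM (-1.20) and 52.1 against 298.6 FPKM (-2.50). Hspa1b had 1.21 and -1.97, the former from only 4.44 against 1.35 FPKM. As a sum the pair had -1.14 and -2.49. Single cells did not share this direction for Hspa1a, with 0.28 and 0.14, and gave 0.014 and -0.068 for Hspa1b. Both genes were under the 20% of cells needed to be compared. Between the KO-labelled wells 18.5% of 11857 genes were higher and 18.1% lower by at least 1, and between the WT wells 18.9% and 20.2% of 11845.

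Cycling cells had more of most members, and the median of all genes was higher in them too. A cell was taken as cycling with at least 3 of Mki67, Top2a, Ccna2, Cdk1, Birc5 and Rrm2 detected, which held for 5 KO-labelled CD4, 5 WT CD4, 4 KO-labelled CD8 and 30 WT CD8 cells. On the WT CD8 plate, the only one with many, Hsp90aa1 was detected in 86.7% of cycling and 42.9% of other cells, with medians of 545.3 and 0 FPKM. Hsp90ab1 had medians of 3208 and 1091 FPKM, Hspa8 5743 and 2502 FPKM, and Hsph1 was detected in 70% against 21.4% of cells. The differences in mean log2(FPKM + 1) were 5.00 for Hsp90aa1, 3.37 for Hsph1, 3.16 for Hsp90ab1, 2.86 for Hspa8, 2.47 for Dnajb1 and 2.26 for Dnaja1, against a median of 1.42 over 8093 genes. Cycling cells had a median of 4587 detected genes and the others 2430, so number of genes moves with this split. Among cells of at least 2000 genes the median of the 8 members was 1.13, against 2.67 in all kept cells. With at least 1 of the 6 cycle genes as the rule, it was 0.45, and on the KO-labelled CD4 plate the median turned to -0.17, against 2.30. Hsp90aa1 differed by 3.73, 3.62 and 3.45 on the KO-labelled CD4, WT CD4 and KO-labelled CD8 plates, which rest on 5, 5 and 4 cycling cells. The medians of all genes on these plates were 1.27, 1.63 and 1.34. Hsph1 (1.07), Hspa8 (0.99) and Dnaja1 (0.84) were below it on the KO-labelled CD8 plate, and Hspa8 (1.27) on the WT CD4 plate. Hspa1a and Hspa1b were below the median of all genes on every plate.

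CD4 cells with Foxp3, the transcription factor gene that marks regulatory T cells, were compared with CD4 cells in which it was not detected. On the KO-labelled plate 42 of 73 cells had Foxp3, against 27 of 79 on the WT plate. Dnajb1 was found in 52.4% of cells with Foxp3 and 35.5% of cells without it on the KO-labelled plate, and in 40.7% against 28.9% on the WT plate. The mean log2(FPKM + 1) differed by 1.34 and 0.88, against medians of -0.07 and 0.79 over all genes, so that the WT value was close to that of other genes. Hsph1 was found in 23.8% against 35.5% and in 11.1% against 11.5%.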

How the data were processed

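The authors deposited FPKM, set to a common scale with TMM factors per the labels, for 380 libraries and 23420 gene symbols, with 2 decimals. RSEM, Bowtie and the mm10 build are named in the submitters' processing notes, and versions are not given in the sources used here. No column was left unmatched to a label. Read counts were not recovered, because RSEM estimates need not be whole, so the number of genes above FPKM 1 stands for depth.

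From these values log2(FPKM + 1) was taken, with a pseudocount of 1, which understates the change of low genes. Kept cells had at least 1000 genes above FPKM 1. Genes compared had at least 20% of cells in 1 of 2 plates, or FPKM above 1 in 1 of 2 wells. A difference of at least 1 on the log2 scale was counted. No test was run, as each group is 1 plate and cells are not replicates. Correlations are Spearman's rho within a plate. Alternatives changed the pseudocount, the cells, the gene filter and the scaling. The measures were tested on simulated data. The 8 members, the gene lists and the naming rule were chosen with earlier results of these data known. The naming rule took all members, Fos, Ier2, the 10 genes most like the inducible mean and, from each list, at most 6 genes a direction past a difference of 1. Python 3.11.15, numpy 2.4.6, pandas 2.3.3, scipy 1.17.1 and matplotlib 3.10.9 were used. Where RefSeq lists several starts of a gene, the window nearest to the GENCODE start was taken. Sequences are from RefSeq and positions from GENCODE M21.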

Additional observations from a re-analysis of the deposited data

Results flagged for a closer look

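The cells under 1000 detected genes, which enter no comparison, still held some of the abundant members. Of these 72 cells 18.1% had Hsp90ab1, 9.72% had Hspa8 and 9.72% had Hsp90aa1, with Clopper-Pearson intervals of 9.98% to 28.9% for Hsp90ab1 and 3.999% to 19.01% for each of the others. They are given because these cells lie outside all comparisons and each share is above 4.17%, which 3 of 72 cells would give; for Hspa8 and Hsp90aa1 the lower bound is under that value. Their highest levels were 1085 FPKM for Hsp90ab1, 3975 FPKM for Hspa8 and 1155 FPKM for Hsp90aa1. Dnajb1 was found in 3 of them, at no more than 1.49 FPKM, and Hspa1a, Hspa1b, Hsph1 and Dnaja1 in 0.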

How the results depend on the processing

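Of the alternative values of the main results, 15 moved and 1 reversed. The others stayed close, which means within 0.58 for differences on the log2 scale, within 0.1 for rho and inside its own interval for a share. The median KO-labelled minus WT difference of the members in CD8 cells was 0.05, and 1.28 in cells of 1000 to 4000 genes, 1.57 in non-cycling cells and 0.66 in matched cells. Its sign was not stable among the values counted as close. It turned to -0.51 in cells of at least 2000 genes and -0.19 as log2 of the mean FPKM. With no filter on genes it was -0.054, and with a pseudocount of 10 -0.0051. The remaining alternatives kept the sign. The CD4 minus CD8 median in WT cells was -0.78, and -0.13 in all cells, 0.27 in cells of 1000 to 4000 genes, 0.54 in non-cycling cells and 0.32 in matched cells. Among single genes past 1, Hspa8 in CD8 cells turned to -0.086 as log2 of the mean FPKM and -0.12 in cells of at least 2000 genes. Hsph1 in CD4 cells (1.05) ranged from 0.58 to 1.63 over the alternatives. Hsp90aa1 in the WT lineage comparison turned to 0.059, 0.62 and 0.041 in cells of 1000 to 4000 genes, non-cycling and matched cells. The share of WT CD8 cells with the HSP70 pair was 0% among non-cycling cells. In cells of at least 2000 genes the constitutive mean had a rho of -0.061 with Ier2, and 80% of WT CD8 cells with neither Fos nor Ier2 had an inducible gene. With at least 1 of 6 cycle genes as the rule, the cycling medians were -0.17, 0.33, 0.26 and 0.45 on the KO-labelled CD4, WT CD4, KO-labelled CD8 and WT CD8 plates, against 2.30, 2.70, 1.03 and 2.67. In cells of at least 2000 genes those of the WT CD4 and WT CD8 plates were 1.85 and 1.13. The causes of these changes were not tested. Rescaling libraries to equal totals and leaving out cells with macrophage genes were chosen after seeing the data. Rescaling moved the median of all genes by less than 0.1 except between the KO-labelled wells, where it was -0.11 against 0.02. No paired analysis was possible because each group is 1 plate, so that the 4 in the titles (WT4, KO4) would give at most 1 pair in a comparison.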
